A study of Mus musculus with 11 samples.

Results

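The replication-dependent histone genes were followed by ChIP-seq for H3K27ac, the acetylated lysine 27 of histone H3 that marks active promoters and enhancers, in the mouse pre-T cell line Beko. Members were all H3K27ac regions to which the authors' deposited table assigns a symbol beginning with Hist1h, Hist2h, Hist3h or Hist4h. They numbered 112 of 56342 regions and carried 36 symbols. Cells had been kept for 24 h with apicidin at 0.01 mg/ml, a histone deacetylase inhibitor that the labels give as directed at HDAC3, with the gamma-secretase inhibitor DAPT (GSI) at 10 mg/ml, which blocks the cleavage that releases active Notch, or with the solvent DMSO, doses as labelled. Each condition had 2 H3K27ac libraries and 1 input, and RBPJ, the DNA-binding partner of cleaved Notch, had 2 libraries in DMSO cells, which makes 11 in all. The deposited values are fold changes with their standard errors (SE), whose reference the headers do not name and which is taken here as DMSO. They are not values per library, so no library can be shown alone. Cells in every condition were of this 1 line, and the labels do not say whether paired libraries are separate cultures, so the p-values measure a spread that may be technical.

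Replication-dependent histone genes encode the core histones H2A, H2B, H3 and H4 and the linker histone H1 that package newly copied DNA. They are short, mostly intronless genes that lie together in clusters, the largest of which is Hist1. Their transcripts end in a stem-loop bound by SLBP in place of a poly(A) tail, and they are made chiefly in S phase, when NPAT drives their transcription in histone locus bodies. Many copies are nearly identical in their coding part. How reads that fit several copies were placed is not stated in the sources used, so the share of signal of each copy is uncertain.

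Promoter sequences are shown for the member with the strongest start-covering region in each family, so that the elements in front of these genes can be seen beside the values that follow. They are the 250 bases before the annotated start in RefSeq (GRCm38.p6, not the build of the H3K27ac regions), 5' to 3', with motif matches in capitals, a match on the other strand appearing as the reverse complement. The motifs searched were TATAAA (the TATA box), CCAAT (bound by NF-Y), AAACACA (the H1 box of linker histone genes), ATTTGCAT (the octamer bound by POU2F1) and TGGGAA (the core of the RBPJ site).
Hist1h1b, chr13:21780626-21780875, minus strand: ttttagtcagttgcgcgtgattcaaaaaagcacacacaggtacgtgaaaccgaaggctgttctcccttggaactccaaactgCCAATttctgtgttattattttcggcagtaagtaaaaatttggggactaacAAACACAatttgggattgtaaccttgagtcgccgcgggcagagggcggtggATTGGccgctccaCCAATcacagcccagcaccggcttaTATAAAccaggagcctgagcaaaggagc
Hist2h2ab, chr3:96219635-96219884, plus strand: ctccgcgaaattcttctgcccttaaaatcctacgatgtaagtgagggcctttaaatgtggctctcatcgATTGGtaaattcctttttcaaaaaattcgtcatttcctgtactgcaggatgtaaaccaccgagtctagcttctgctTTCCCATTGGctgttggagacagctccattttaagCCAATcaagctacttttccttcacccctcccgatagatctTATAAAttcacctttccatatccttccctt
Hist1h2bg, chr13:23571150-23571399, plus strand: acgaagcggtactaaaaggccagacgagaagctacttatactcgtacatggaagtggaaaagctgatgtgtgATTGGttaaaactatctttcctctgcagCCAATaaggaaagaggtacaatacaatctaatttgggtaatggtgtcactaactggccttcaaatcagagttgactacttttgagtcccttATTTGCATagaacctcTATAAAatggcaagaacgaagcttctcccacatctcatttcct
Hist1h3c, chr13:23745522-23745771, minus strand: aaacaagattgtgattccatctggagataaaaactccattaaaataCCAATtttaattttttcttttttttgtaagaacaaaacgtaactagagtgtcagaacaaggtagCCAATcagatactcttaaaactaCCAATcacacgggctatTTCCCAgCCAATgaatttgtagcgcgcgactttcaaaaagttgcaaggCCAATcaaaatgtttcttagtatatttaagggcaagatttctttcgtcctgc
Hist1h4b, chr13:23756687-23756936, plus strand: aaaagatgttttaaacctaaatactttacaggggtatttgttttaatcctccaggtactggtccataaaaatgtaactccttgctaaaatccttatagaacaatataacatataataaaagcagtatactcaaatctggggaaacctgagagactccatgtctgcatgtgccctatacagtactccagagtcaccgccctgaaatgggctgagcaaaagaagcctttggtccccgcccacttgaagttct
The H1 gene Hist1h1b held a TATA box 28 bases before its start, CCAAT matches at 53, 66 and 168 bases and an H1 box at 117 bases. In Hist2h2ab, an H2A gene, the TATA box lay 30 bases before the start and CCAAT matches at 70, 100 and 181 bases, the one at 100 sharing a base with an RBPJ core match at 105. The H2B gene Hist1h2bg carried the octamer 59 bases before the start, next to a TATA box at 43 bases. Hist1h3c, an H3 gene, had 5 CCAAT matches and no TATAAA, and none of these letters occurred in the window of the H4 gene Hist1h4b.

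Over windows of 300 bases, from 250 before to 50 after the start, 70 histone genes were found in RefSeq by their older symbols, and 62 of them had 63 promoters. CCAAT was, on either strand, in 54 of the 63 (85.7%), against 37.4% of all 32851 promoters in RefSeq. TATAAA was in 55.6% of histone promoters, against 13.6% of all. The octamer was in 22.2%, against 1.74% of all, with 7 of 18 H2A and 7 of 17 H2B promoters holding it and none of the 6 H1, 10 H3 and 12 H4 promoters. The H1 box was in 5 of 6 H1 promoters, and in 7.18% of all promoters. By family, CCAAT stood in every H1, H2A, H2B and H3 promoter but in 3 of 12 H4 promoters. The RBPJ core was about as common in histone promoters (22.2%) as in all promoters (25.6%). These are matches of letters, not measured binding. Of the 36 symbols with regions, 35 were matched to RefSeq by accession and 32 had a promoter.

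**Figure D1:**
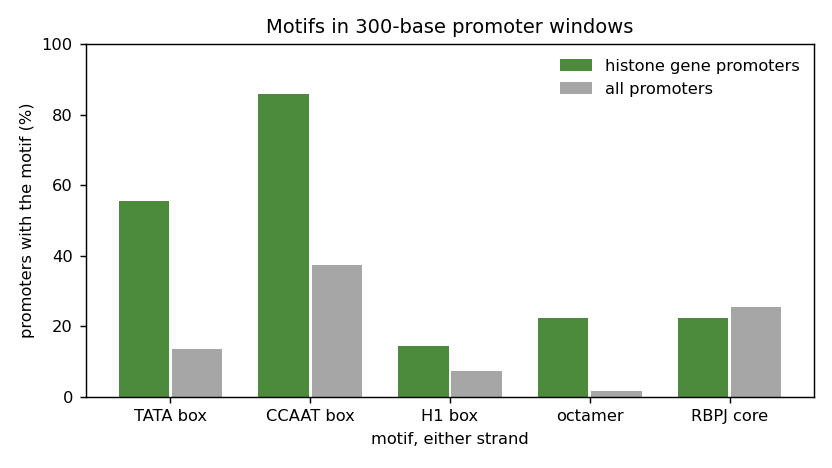
Share of promoter windows of 300 bases that hold each motif on either strand, as bars from 0, in 63 histone gene promoters (green) and in all 32851 RefSeq promoters (grey). CCAAT, TATA and octamer bars stand higher for histone promoters (85.7%, 55.6% and 22.2%) than for all promoters (37.4%, 13.6% and 1.74%), and the RBPJ core does not (22.2% and 25.6%).

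Most members belonged to Hist1, with 96 regions of 29 genes on chromosome 13. Another 15 regions of 6 genes were Hist2 on chromosome 3, 1 was the pseudogene Hist3h2bb-ps on chromosome 11, and no region carried a Hist4h symbol. By family the 36 symbols were 3 H1, 6 H2A, 14 H2B, 4 H3 and 9 H4 genes. On mm9 the Hist1 regions fell into 3 stretches, from 21801586 to 21938424 (38 regions), from 22117781 to 22143583 (8 regions) and from 23608216 to 23857926 (50 regions), with gaps of 179 and 1465 kb between them. The Hist2 regions ran from 96021978 to 96082986.

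H3K27ac was concentrated at the gene starts. A region that covered the transcription start site (TSS) was present for 20 of the 36 genes, and these 20 regions held 77.3% of the summed base mean of all members on 60.2% of their summed width. The base mean, the authors' mean of normalised read counts over libraries, had a median of 1244 in the 20 TSS-covering regions (range 491 to 5140), 43.0 in the other 92 and 61.3 in the whole table. Per kb of region, a scale that allows comparison between regions, the base mean had a median of 326 in the TSS-covering members (160 to 565), against 297 in the 3768 TSS-covering regions of the table within the same base mean range of 491 to 5140. Those 3768 regions, which include the 20, are used below as the background of like strength.

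The strongest member was the region of Hist1h3c (chromosome 13, 23834821 to 23848744), 13.9 kb wide with a base mean of 5140, above 99.8% of the table. Next came the regions of the linker histone gene Hist1h1b (11.5 kb, base mean 3951) and of the H4 genes Hist1h4b (9.09 kb, 3290) and Hist1h4f (10.1 kb, 3047). The Hist2h2ab region was 7.90 kb wide with a base mean of 2916. The table names 1 gene for each region, although 9 of the 20 were wider than 5 kb and 15 lay less than 1000 bp from the member before them. In RefSeq order the genes Hist1h2bb, Hist1h2ab and Hist1h3b stand between Hist1h3c and Hist1h4b, whose regions were 95 bp apart, and none of the 3 had a region of its own. Of the 70 histone genes in RefSeq, 34 had none under their own symbol, so a broad region may hold several gene starts. Adjoining regions share their surroundings and are not independent.

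The other 16 genes were represented by regions off their TSS. Among them Hist1h1t, the linker histone gene of testis, had 4 regions with base means of at most 42.3. Hist1h1c, another linker histone gene, had 11 regions, the strongest at 540 and 8641 bp from the start. Hist1h4d had no region on its start but one 31 bp from it, with a base mean of 2659.

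None of the 112 histone regions bore the authors' mark for overlap with an RBPJ site, against 1538 of 56342 regions (2.73%) in the table and 14.5% of the TSS-covering regions of like strength. How much overlap that mark required is not stated in the sources used. The strongest region of the Notch target Hes1, 276 bp from its start, lacked the mark too. A region without it can therefore belong to a Notch target.

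With GSI, H3K27ac rose at most histone gene starts. In cells measured in bulk, more cells that carry the mark and more of it per cell cannot be told apart. A region was called higher or lower where the authors' DESeq2 Wald test had a Benjamini-Hochberg adjusted p under 0.05. Of the 20 TSS-covering members, 16 were called higher than DMSO, 0 lower and 4 not called in the authors' deposited table, where 7.94% of TSS-covering regions of like strength were called higher and 5.36% lower. Over all members 18 were called higher and 0 lower in the authors' deposited table, against 6.62% and 7.17% of all regions tested with GSI. The log2 fold change was above 0 at all 20, with a median of 0.31 and a range of 0.07 to 0.44, which is 5.00% to 35.9% above DMSO. Regions of like strength had a median of 0.01 and middle 50% from -0.10 to 0.12. No member reached an unadjusted p under 0.05 in the lower direction in the authors' DESeq2 results, whereas 19 of the 20 did in the higher one. The SD of the 20 fold changes, 0.082, was no larger than their median SE of 0.085.

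Regions assigned to linker histone, core histone and pseudogene symbols were all among those called. The region assigned to the pseudogene Hist3h2bb-ps was 5.18 kb wide. Its neighbours in RefSeq order, Hist3h2ba and Hist3h2a, had no region of their own, so it may hold their signal as well. For the linker gene Hist1h1b the log2 fold change with GSI was 0.31 ± 0.06 (SE, adjusted p = 7.49e-06) by the authors' deposited table. The H3 gene Hist1h3c, with 5 CCAAT matches in its promoter above, had 0.32 ± 0.05 (adjusted p = 1.68e-08) by the authors' deposited table, the smallest adjusted p among the members. All 3 TSS-covering H4 regions were called higher, and the authors' deposited table gave 0.27 ± 0.06 for Hist1h4b, 0.27 ± 0.07 for Hist1h4f and 0.40 ± 0.08 for Hist1h4j. Histones H2A and H2B pair as a dimer, and many of their genes lie side by side. Of the H2A regions 4 of 6 were called, among them Hist1h2ai (0.32 ± 0.07, adjusted p = 3.28e-04) and Hist1h2ae (0.36 ± 0.10, adjusted p = 0.00799) by the authors' deposited table. Of the 9 H2B regions 7 were called, with Hist1h2bg at 0.30 ± 0.06 (adjusted p = 3.36e-05), Hist1h2bl at 0.38 ± 0.11, Hist1h2bp at 0.39 ± 0.09 and Hist1h2bk at 0.29 ± 0.09, all from the authors' deposited table. The largest fold change at a start was at the H2B gene Hist1h2bc (0.44 ± 0.09, adjusted p = 1.05e-05, the authors' deposited table). Hist2h2ab on chromosome 3 (0.23 ± 0.06, adjusted p = 0.00434) and Hist3h2bb-ps on chromosome 11 (0.29 ± 0.08, adjusted p = 0.00576) rose as well in the authors' deposited table, so the rise was not limited to chromosome 13.

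The 4 starts without a call all had positive fold changes in the authors' deposited table. They were Hist1h2ah at 0.07 ± 0.12 (adjusted p = 0.784), Hist1h2bm at 0.28 ± 0.12 (adjusted p = 0.108), Hist1h2be at 0.20 ± 0.08 (adjusted p = 0.0585) and Hist1h2ac at 0.28 ± 0.11 (adjusted p = 0.0709). Hist1h2bm, Hist1h2be and Hist1h2ac lay inside the range of the called regions or just under it, and the interval of Hist1h2ah reached 0.30. The 3 Hist1 stretches each contributed, with 5 of 6, 3 of 4 and 6 of 8 starts called higher.

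With apicidin, the same starts were mostly lower in H3K27ac, as were many promoters. Since normalisation may have removed a change common to all regions, lower and higher are to be read relative to other regions. By the calls of the authors' deposited table, 14 of the 20 TSS-covering members were called lower than DMSO, 1 higher and 5 not called, where 50.1% of TSS-covering regions of like strength were called lower and 10.6% higher. Over all 112 members 6 were called higher and 22 lower in the authors' deposited table, against 9.69% and 14.1% of all regions. The median log2 fold change at the starts was -0.31, against -0.25 for the regions of like strength, so the histone share is to be read against a background in which about as large a fall was common. The members ran from -0.52 to 0.30 with an SD of 0.21, against a median SE of 0.084. Unlike the GSI values, they therefore spread wider than their errors.

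The 10 strongest members were all called lower. Hist1h3c was lower by a log2 fold change of -0.45 ± 0.05 (adjusted p = 1.63e-16) by the authors' deposited table, and Hist1h1b by -0.40 ± 0.06 (adjusted p = 6.73e-10). Hist1h2bg was lower as well (-0.48 ± 0.06, adjusted p = 1.10e-12, the authors' deposited table), as were the H2A genes Hist1h2ai (-0.40 ± 0.07, adjusted p = 9.67e-07) and Hist2h2ab (-0.40 ± 0.06, adjusted p = 9.29e-09). Hist1h2be was at -0.43 ± 0.08 (adjusted p = 2.40e-07) and Hist1h4b at -0.33 ± 0.06 (adjusted p = 4.65e-07) by the authors' deposited table. The largest fall at a start was at Hist1h2ag (-0.52 ± 0.10, adjusted p = 1.86e-06, the authors' deposited table). Smaller falls were called at Hist1h2bp (-0.28 ± 0.09), Hist1h2bc (-0.28 ± 0.09), Hist1h4f (-0.24 ± 0.07) and Hist3h2bb-ps (-0.22 ± 0.08) in the authors' deposited table. These 4 calls were lost when the fold changes were centred on the stronger regions of the table, whose median was -0.10, and when the trend over base mean was subtracted. The last starts called lower were Hist1h2ah (-0.47 ± 0.12, adjusted p = 4.97e-04) and Hist1h2bm (-0.45 ± 0.12, adjusted p = 0.00152) in the authors' deposited table, with Hist1h2bm at an adjusted p of 0.0524 once the trend was subtracted.

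The 5 starts not called with apicidin were Hist1h2bl, Hist1h4j, Hist1h2bk, Hist1h2ae and Hist1h2ac, with log2 fold changes in the authors' deposited table from -0.23 ± 0.11 at Hist1h2bl to 0.01 ± 0.08 at Hist1h2bk. Among them Hist1h4j stood at -0.06 ± 0.08 with apicidin and at 0.40 ± 0.08 with GSI in the authors' deposited table.

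**Figure D2:**
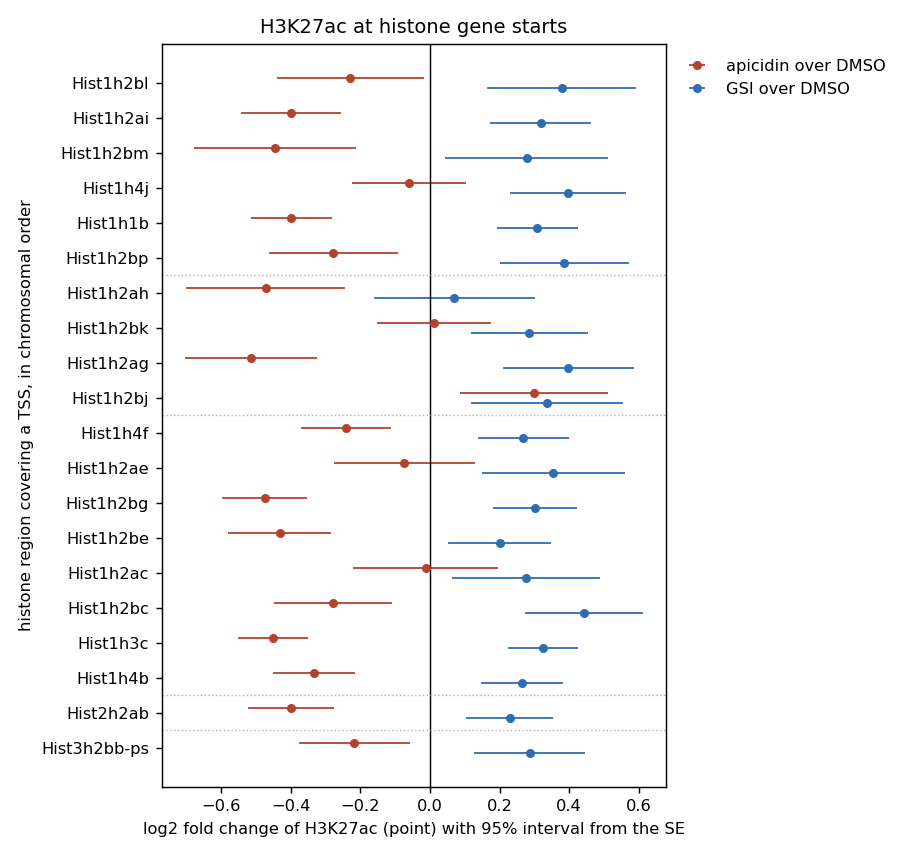
Log2 fold change of H3K27ac against DMSO at the 20 histone regions that cover a TSS, down the page in chromosomal order with dotted lines between the stretches, for apicidin (red) and GSI (blue), with bars for the 95% interval of each authors' estimate. All 20 GSI points lie right of 0 (0.07 to 0.44) and 18 apicidin points lie left of it, down to -0.52 at Hist1h2ag.

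A divergent pair parted in its response to apicidin. Hist1h2ag and Hist1h2bj, an H2A and an H2B gene, face away from each other with starts 249 bases apart in RefSeq, and the pair was singled out after its values were seen. Their windows of 250 bases share 248 bases of opposite strands, so 1 sequence serves for both. It is shown because the regions of these genes adjoin and were called in opposite directions.
Hist1h2ag, chr13:22042950-22043199, minus strand: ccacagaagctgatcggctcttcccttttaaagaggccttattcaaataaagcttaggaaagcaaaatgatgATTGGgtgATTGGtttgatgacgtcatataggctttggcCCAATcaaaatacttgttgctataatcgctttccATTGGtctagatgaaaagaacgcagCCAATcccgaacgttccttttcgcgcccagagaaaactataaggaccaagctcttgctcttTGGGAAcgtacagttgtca
It holds 5 CCAAT matches, in capitals, at 80, 105, 139, 170 and 178 bases before the Hist1h2ag start, and the RBPJ core 19 bases before it. On mm9 the Hist1h2ag region (22133294 to 22134924) and the first Hist1h2bj region (22135069 to 22138744) are 144 bp apart. With apicidin the first was at -0.52 ± 0.10 and the second at 0.30 ± 0.11 (adjusted p = 0.0274) by the authors' deposited table. A further Hist1h2bj region, 4546 bp from the start, rose by 0.61 ± 0.11 (adjusted p = 2.43e-07, the authors' deposited table). With GSI both the first and the second region were called higher, 0.40 ± 0.10 (adjusted p = 6.67e-04) and 0.34 ± 0.11 (adjusted p = 0.0230), and 0.15 ± 0.11 (not called, adjusted p = 0.448) at the third in the authors' deposited table. The call at the first Hist1h2bj region did not hold at a threshold of 0.01.

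Away from the starts, 28 of the 92 regions were tested with GSI and 64 members in all had no adjusted p for it, every one of them at a base mean of 72.1 or less. By the calls of the authors' deposited table, 2 of the 28 were called higher and 0 lower, where 7.2% of tested regions off a TSS were called higher and 8.35% lower. They were the Hist1h4d region next to its start (0.33 ± 0.07, adjusted p = 9.99e-06) and the Hist2h2bb region 6889 bp from its start (0.37 ± 0.12, adjusted p = 0.0140). At an unadjusted p under 0.05 the authors' DESeq2 results held 5 of the 92 in the higher direction and 0 in the lower. The 77 regions off a TSS with a base mean under 100 had a median SE of 0.41 for GSI, larger than the median fold change at the starts, so a change of that size was not detectable at most of them.

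With apicidin, 5 regions off a TSS were called higher and 8 lower in the authors' deposited table, where 9.97% of all regions off a TSS were called higher and 10% lower. The lower ones included the Hist1h4d region next to its start (-0.55 ± 0.07, adjusted p = 2.63e-15). The largest well-measured fall was 10782 bp from the Hist1h2bn start (chromosome 13, 21856775 to 21858938, base mean 498), at -0.88 ± 0.12 (adjusted p = 4.02e-12, the authors' deposited table). A region 8641 bp from the Hist1h1c start followed at -0.69 ± 0.12 (adjusted p = 5.59e-08, the authors' deposited table). The rest of the lower ones were 1 region of Hist1h2bl (-0.46 ± 0.13), 2 of Hist1h2ah (-0.92 ± 0.31 and -0.87 ± 0.28) and 2 of Hist1h4h (-0.86 ± 0.25 and -0.68 ± 0.23) in the authors' deposited table. Besides the Hist1h2bj region, the higher ones were weak, with base means from 16.2 to 94.4. They lay near Hist1h4f (2.03 ± 0.65, adjusted p = 0.0107), Hist1h2bp (1.17 ± 0.36, adjusted p = 0.00671), Hist1h2ac (0.98 ± 0.38, adjusted p = 0.0464) and Hist2h4 (0.74 ± 0.26, adjusted p = 0.0257) by the authors' deposited table. When the trend of the fold change over base mean was subtracted, the Hist1h4f call was lost at 1.41 (adjusted p = 0.111), the Hist1h2bl call at -0.33 (adjusted p = 0.0602) and the Hist1h2ac call at 0.97 (adjusted p = 0.0527), a fold change hardly moved. The Hist1h4h call at -0.68 was lost on centring, at -0.58 (adjusted p = 0.0519).

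**Figure D3:**
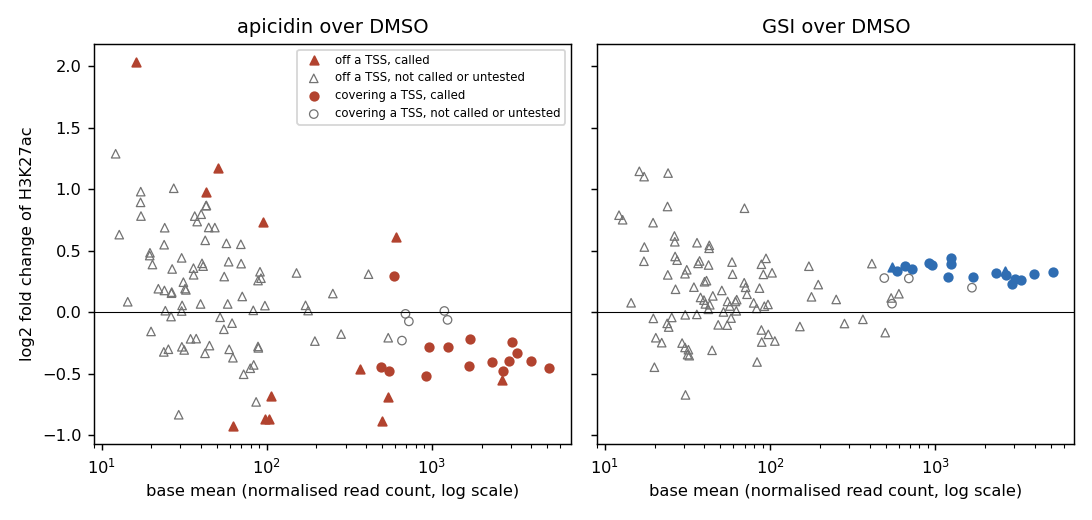
Log2 fold change of H3K27ac against base mean (log axis) for the 112 histone regions with apicidin (left) and GSI (right), circles covering a TSS and triangles off it, filled where called. TSS-covering regions sit at base means of 491 to 5140, and the scatter of the weak regions on the left of each panel is wide.

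In the Hist2 cluster the H2A gene Hist2h2ab, at its strong start region, fell with apicidin while the weaker regions around Hist2h4 and Hist2h3c2 had positive fold changes. The 6 Hist2h4 regions ran from 0.07 ± 0.37 to 0.98 ± 0.61 in the authors' deposited table, with 1 called. The Hist2h3c2 regions stood at 1.01 ± 0.45 (adjusted p = 0.0894) and 0.69 ± 0.36 (adjusted p = 0.163), and the Hist2h3c1 region at 0.31 ± 0.39 in the authors' deposited table. The 4 Hist2h2be regions ran from 0.01 ± 0.44 to 0.63 ± 0.70, and Hist2h2bb was at -0.21 ± 0.11 (adjusted p = 0.197) by the authors' deposited table. With GSI, the authors' deposited table left 11 of these 15 regions untested.

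Both comparisons rest on the same DMSO libraries, so their values are set side by side and the difference between the treatments was tested directly. The difference of the log2 fold changes was divided by the root of the summed squared SEs, which is an upper bound of its SE, with a two-sided normal p adjusted over all 56342 regions. With apicidin 17 of the 20 TSS-covering members were lower than with GSI and 0 higher by this test, which also gave 0 higher at an unadjusted p under 0.05, where 33.2% of TSS-covering regions of like strength were lower and 6.26% higher. The median difference, apicidin minus GSI, was -0.62, and it was below 0 at all 20. Hist1h3c differed by -0.78 ± 0.07 (adjusted p = 6.43e-23) and Hist1h2ag by -0.91 ± 0.14 (adjusted p = 4.53e-09). The exceptions were Hist1h2bk at -0.27 ± 0.12 (adjusted p = 0.164), Hist1h2ac at -0.29 ± 0.15 (adjusted p = 0.313) and Hist1h2bj at -0.04 ± 0.16 (adjusted p = 0.971), whose 95% interval ran from -0.34 to 0.27. Over all 112 members 22 were lower with apicidin than with GSI and 1, the distal Hist1h2bj region, was higher (0.46 ± 0.16, adjusted p = 0.0383), where 5.6% and 3.01% of all regions were.

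Of the other genes within the span of the Hist1 regions, none was called with GSI. The table lists 22 other regions within the Hist1 span, assigned to 8 symbols, among them Hfe, an iron-regulating gene, Btn1a1, a butyrophilin gene, and Abt1. Only the Hfe regions lay inside a Hist1 stretch, and the others lay in the gaps between stretches. For GSI the authors' deposited table tested 14 of the 22 and called 0, where 6.62% of all regions tested were called higher and 7.17% lower. The median log2 fold change of the 22 was 0.01, but most were off a TSS, and their median base mean was 140. The 6 that covered a TSS had a median of 0.14, with 4 positive and 2 negative. Their median SE was 0.15, larger than at the histone starts. In the authors' DESeq2 results 1 of the 22 was higher at an unadjusted p under 0.05 and 0 lower. The strong Hfe start region, base mean 1740, was at -0.01 ± 0.08 with GSI (adjusted p = 0.972) and at -0.56 ± 0.08 with apicidin (adjusted p = 1.06e-11) by the authors' deposited table. With apicidin 10 of the 22 were called lower and 0 higher by the calls of the authors' deposited table, where 14.1% of all regions and 50.1% of TSS-covering regions of like strength were called lower, their median being -0.39, and 1 was higher at an unadjusted p under 0.05 in the authors' DESeq2 results. The difference between the histone and the other regions was not tested, since neither set has values per library.

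**Figure D4:**
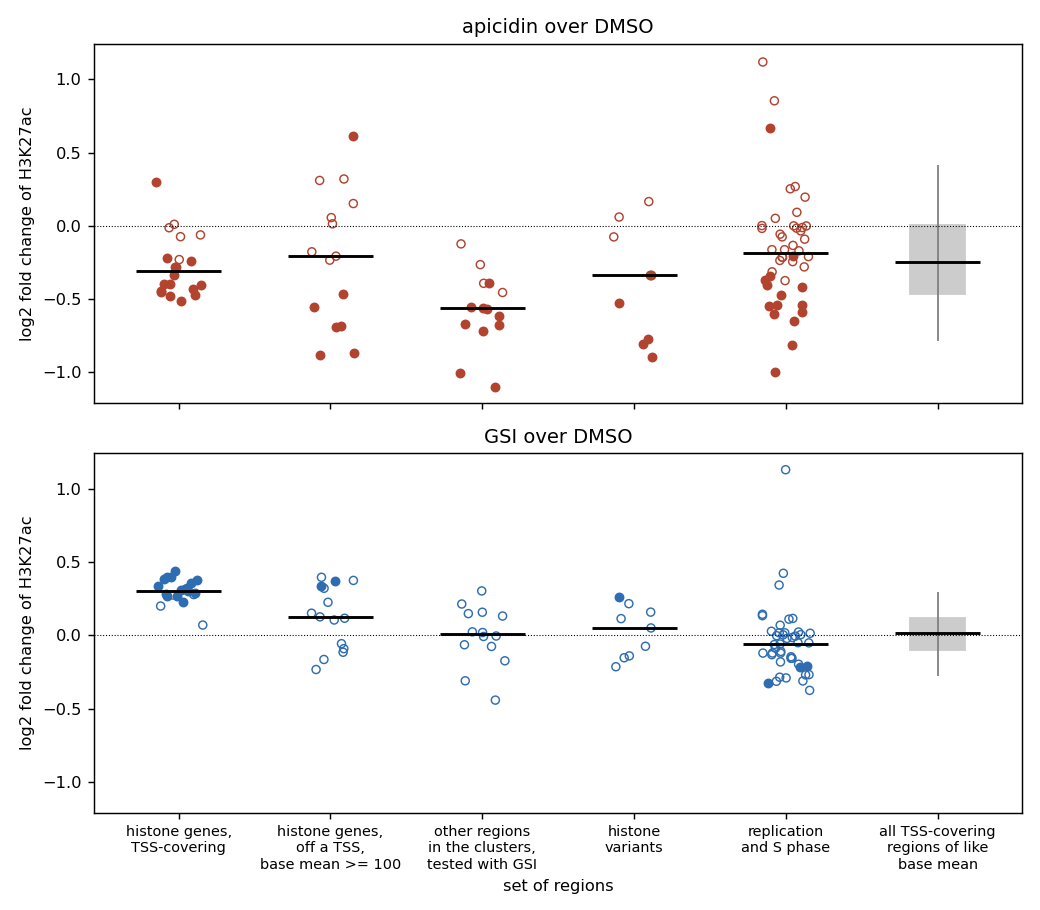
Log2 fold change of H3K27ac against DMSO with apicidin (top) and GSI (bottom), 1 point per region, filled where called, with a black line at each median. The first 3 sets are histone regions covering a TSS, histone regions off a TSS at a base mean of 100 or more, and other regions of the Hist1 span that were tested with GSI. Histone variant genes and replication genes follow at their strongest region, and the grey box and line give the middle 50% and 90% of the 3768 TSS-covering regions of like strength. With GSI the TSS-covering histone regions have a median of 0.31, and the regions of like strength one of 0.01.

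Genes that act with the replication-dependent histones were taken at the region of highest base mean. Beside the medians that follow, TSS-covering regions of like strength to the histone starts had -0.25 with apicidin and 0.01 with GSI. Of those regions the authors' deposited table called 50.1% lower and 10.6% higher with apicidin, and 5.36% lower and 7.94% higher with GSI. The lists below were not matched to them, with median base means from 461 to 970 and some regions off a TSS. Of all TSS-covering regions 39.4% were called lower and 8.01% higher with apicidin, and 4.36% and 5.25% with GSI. Of regions off a TSS 10% were called lower with apicidin. The counts of each list can be read against these shares only roughly. Replication-independent histone variants, which replace the S-phase histones outside replication, had a region for 9 of 11 genes. The list medians were -0.33 with apicidin and 0.05 with GSI on the log2 scale. With GSI 1 of the 9 rose, H3f3a, which encodes H3.3 (0.26 ± 0.10, adjusted p = 0.0484, the authors' deposited table), and with apicidin 6 fell and 0 rose, with 0 higher at an unadjusted p under 0.05 in the authors' DESeq2 results. The apicidin falls were at Cenpa, the centromeric H3 (-0.89 ± 0.11, adjusted p = 6.45e-15), H2afz (-0.80 ± 0.09, adjusted p = 8.40e-16), H2afv (-0.77 ± 0.12, adjusted p = 7.69e-09) and H3f3a (-0.52 ± 0.10, adjusted p = 1.28e-06), among others, in the authors' deposited table.

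The genes for transcription and 3' processing of histone mRNAs had a region for 21 of 23 listed. The list medians were -0.38 with apicidin and -0.03 with GSI on the log2 scale. With GSI 0 of 20 tested were called in the authors' deposited table, and in the authors' DESeq2 results 2 were lower and 0 higher at an unadjusted p under 0.05. Npat, the histone gene coactivator, was at 0.13 ± 0.12 (adjusted p = 0.549) with GSI by the authors' deposited table. With apicidin 11 (52.4%) fell, against 50.1% of TSS-covering regions as strong as the histone starts and 39.4% of all TSS-covering regions. Another 1 rose, Lsm10 of the U7 particle that cuts histone transcripts, at a region 4079 bp from its start (0.40 ± 0.11, adjusted p = 0.00251, the authors' deposited table). The CCAAT-binding NF-Y subunits Nfyc (-0.86 ± 0.09, adjusted p = 2.55e-18) and Nfyb (-0.53 ± 0.10, adjusted p = 5.89e-07), the stem-loop binder Slbp (-0.57 ± 0.09, adjusted p = 1.12e-09) and the cleavage factor Cpsf2 (-0.46 ± 0.10, adjusted p = 1.83e-05) were among those that fell in the authors' deposited table.

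Of 22 histone chaperones and modifiers of new histones, 20 had a region. The list medians were -0.27 with apicidin and -0.03 with GSI on the log2 scale. With apicidin 9 fell and 0 rose in the authors' deposited table, with 1 higher at an unadjusted p under 0.05 in the authors' DESeq2 results. They included the H3-H4 chaperone gene Asf1a (-0.59 ± 0.11, adjusted p = 3.32e-06), the replication fork gene Mms22l (-0.54 ± 0.10, adjusted p = 3.24e-06), the FACT subunit gene Ssrp1 (-0.54 ± 0.11, adjusted p = 3.04e-05) and Nasp (-0.49 ± 0.12, adjusted p = 6.55e-04) by the authors' deposited table. With GSI 0 of 18 tested were called in the authors' deposited table, and 2 were lower and 0 higher at an unadjusted p under 0.05 in the authors' DESeq2 results.

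Replication and S-phase genes, transcribed in the same part of the cell cycle, had a region for 44 of 47. With GSI 3 of 41 tested fell and 0 rose in the authors' deposited table, with 0 higher at an unadjusted p under 0.05 in the authors' DESeq2 results, and the median log2 fold change was -0.06, against 0.31 at the histone starts. Those that fell were Ccne2, a cyclin E gene (-0.33 ± 0.09, adjusted p = 0.00522), E2f2 (-0.21 ± 0.07, adjusted p = 0.0158) and the licensing factor gene Cdt1 (-0.21 ± 0.08, adjusted p = 0.0403) by the authors' deposited table. With apicidin, where the list median was -0.19, 14 fell by the authors' deposited table. The falls with the smallest adjusted p in the authors' deposited table were at Ccna2 (-0.81 ± 0.10, adjusted p = 3.74e-13), Mcm5 (-0.998 ± 0.13, adjusted p = 6.54e-13), a region 87888 bp from the Prim2 start (-0.59 ± 0.08, adjusted p = 1.54e-10) and Fen1 (-0.54 ± 0.09, adjusted p = 5.52e-08). H3K27ac is not transcription, and the number of cells in S phase was not measured.

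The label of the cells was checked on marker genes. All 14 T-lineage markers had a region, the strongest of each at base means from 222 to 8020 with a median of 3038. With GSI 6 of the 14 fell and 2 rose by the authors' deposited table. Of all regions tested with GSI, 7.17% were called lower and 6.62% higher. The largest falls of these markers were at the recombinase gene Rag1 (-1.12 ± 0.11) and the pre-T cell receptor gene Ptcra (-1.01 ± 0.06). A region 68331 bp from the Rag2 start followed (-0.90 ± 0.09). With apicidin 6 rose and 2 fell by the authors' deposited table, where 9.69% of all regions were called higher and 14.1% lower. Of 16 markers of B, myeloid, erythroid, epithelial and fibroblast cells 9 had a region, with a median of 260, and Pax5, Lyz2, Csf1r, Cebpa, Hbb-b1 and Krt18 were among those without one. Of the other-cell markers 1 rose and 3 fell with apicidin and 0 of 7 tested were called with GSI, where an unadjusted p under 0.05 was reached by 2 in the higher direction and by 1 in the lower, by the authors' DESeq2 results in the authors' deposited table. The part of these changes, T-lineage and other, in the histone values was not tested. As a check of the direction of the fold changes, the strongest region of the Notch target Hes1 was at -0.67 ± 0.15 with GSI (adjusted p = 2.23e-04, the authors' deposited table).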

How the data were processed

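H3K27ac was profiled by ChIP-seq in Beko cells treated for 24 h. Per the submitters' processing notes, the authors used FastQC, Bowtie2, SAMtools and deepTools with the mouse build mm9. The region caller, the read counter and every version are not stated in the sources used. The deposited table holds no value per library, so values for single libraries cannot be shown and sequencing depth is unknown. The SE carries the precision. Per the file headers it holds DESeq2 output by the authors: the base mean as signal, log2 fold changes with SEs, the Wald score, p-values and adjusted p-values. The headers do not name the reference, taken here as DMSO. Normalisation by the authors may have removed a change common to all regions. TSS distances and the RBPJ mark are the authors' own. Scripts used Python 3.11.15, pandas 2.3.3 and scipy 1.17.1, and the code that computes the difference between the treatments from the deposited values was checked on simulated data before use.

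Members and gene lists were chosen with earlier results of these data known. Values are given in full for the strongest member of each family, the 10 strongest members, the 5 of smallest adjusted p per direction and comparison, up to 10 members called in opposite directions by smallest adjusted p with GSI, all of Hist2 and Hist3, and up to 4 genes of smallest adjusted p per list. Other values are named to complete a count, and some items of the gene lists are not reported here. Alternatives changed the centre, the trend over base mean, the threshold, the adjustment and the regions counted.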

Additional observations from a re-analysis of the deposited data

How the results depend on the processing

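The GSI rise at the 20 starts stayed at 16 called with centring, with the trend over base mean subtracted and with adjustment over all regions, and was 15 at an adjusted p of 0.01. Over all members the GSI count of 18 higher stayed between 16 and 18 in all alternatives but 1, which was chosen after seeing the data. There only the strongest region of each run of regions under 1000 bp apart was kept, which left 42 regions. The count was then 11, and the starts lay in only 11 such runs, so fewer calls were possible by construction. The apicidin counts moved more. The 6 higher became 2 at the 0.01 threshold and 3 once regions below the table's median base mean were dropped. They became 1 each with the strongest region per gene, with TSS-covering regions alone and with the strongest region per run. The 22 lower became 14 with TSS-covering regions alone and 14 with the strongest region per run, sets that hold fewer regions by construction. Centring turned the apicidin split of 6 higher and 22 lower into 8 and 17. At the starts the 14 lower became 10 with centring and 9 with the trend subtracted, and the 1 higher became 0 at 0.01. For apicidin minus GSI, the 1 higher became 3 with an assumed correlation of 0.5, which makes the SE of the difference smaller. It became 0 at 0.01, because its adjusted p given above was larger than that. Of the values of single histone regions chosen by rule to be given in full, 1 changed sign. It was Hist2h2be region 1 with apicidin, not called at 0.01 as deposited and at -0.05 with the trend subtracted. Other printed values were not followed in this way. Among them Hist1h4j with apicidin, at -0.06, is smaller in size than the centre of -0.10, so centring makes it positive. No paired analysis was possible because the deposited table holds no value per library, and for the same reason no library could be left out. Weak regions limit the rest, since 64 of the 112 members had no adjusted p for GSI.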
